A study of Mus musculus with 15 samples.

Results

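Gja1, Gja4, Gja5 and Gjc1 encode the vascular connexins Cx43, Cx37, Cx40 and Cx45, and Panx1 encodes pannexin 1. These 5 genes, listed by name, were followed among the 12848 genes with a probe set of their own in an array study of the mouse aorta. Each of the 5 was represented by 1 probe set that carries no other gene symbol. RNA came from C57BL6 mice that were 2 months old when an osmotic pump was implanted and that received angiotensin II (AngII) at 1 µg/kg/min or saline (vehicle) for 3 weeks. Each of the 15 mice, 7 on vehicle and 8 on AngII, gave 1 array. The study asked which mRNAs change in the arterial wall in AngII-induced hypertension. The whole aorta down to the iliac bifurcation was cleaned of fat and opened before extraction, so the RNA came from all layers of the wall. Adipocyte genes still gave signal that differed widely between arrays, as given below. Signals are log2 values, on which 1 unit is a doubling. Probe sets of different genes bind their targets with different strength, so levels are compared between mice and not between genes.

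Connexins assemble into hexameric half-channels, and half-channels of neighbouring cells dock to form gap junctions that pass ions, second messengers and small metabolites. In arteries, Cx37 and Cx40 are known mainly from the endothelium, Cx43 from smooth muscle and from endothelium at sites of disturbed flow, and Cx45 from smooth muscle. Pannexin 1 forms channels in the plasma membrane that do not normally dock, and it releases ATP, which acts on purinergic receptors of neighbouring cells.

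RefSeq (GRCm38.p6) supplied the promoter sequences of 4 of the 5 genes. They are shown so that the 5′ ends of the genes can be compared, Gja4 and Gja5 in particular, whose signals varied together. They span 250 bases before to 50 bases after the annotated start, on the strand of the gene. Capitals mark matches, on either strand, to 5 short motifs: TGGGAA (bound by the Notch effector RBPJ), CCGGAA (ETS factors), TGANTCA (AP-1), GGGCGG (the GC box) and TATAAA (the TATA box).
Gja1, chr10:56377050-56377349, plus strand: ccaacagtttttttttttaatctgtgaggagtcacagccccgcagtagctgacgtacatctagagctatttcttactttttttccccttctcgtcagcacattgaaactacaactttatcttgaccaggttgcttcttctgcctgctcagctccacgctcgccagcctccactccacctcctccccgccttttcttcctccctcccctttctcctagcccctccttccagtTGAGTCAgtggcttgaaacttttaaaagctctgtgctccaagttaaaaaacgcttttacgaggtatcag
Gja4, chr4:127313990-127314289, minus strand: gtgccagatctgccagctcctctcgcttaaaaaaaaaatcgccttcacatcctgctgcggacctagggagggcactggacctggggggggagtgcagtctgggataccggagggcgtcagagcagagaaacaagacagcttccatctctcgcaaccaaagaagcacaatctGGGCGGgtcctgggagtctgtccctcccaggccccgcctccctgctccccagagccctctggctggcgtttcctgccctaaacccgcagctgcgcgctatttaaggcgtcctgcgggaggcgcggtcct
Gja5, chr3:97032152-97032451, plus strand: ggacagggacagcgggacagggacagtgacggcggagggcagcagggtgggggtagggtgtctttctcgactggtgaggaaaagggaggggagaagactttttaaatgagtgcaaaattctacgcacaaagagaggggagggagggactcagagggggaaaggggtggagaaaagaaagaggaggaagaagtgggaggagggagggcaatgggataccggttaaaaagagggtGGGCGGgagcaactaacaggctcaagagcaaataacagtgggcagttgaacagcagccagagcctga
Panx1, chr9:15045429-15045728, minus strand: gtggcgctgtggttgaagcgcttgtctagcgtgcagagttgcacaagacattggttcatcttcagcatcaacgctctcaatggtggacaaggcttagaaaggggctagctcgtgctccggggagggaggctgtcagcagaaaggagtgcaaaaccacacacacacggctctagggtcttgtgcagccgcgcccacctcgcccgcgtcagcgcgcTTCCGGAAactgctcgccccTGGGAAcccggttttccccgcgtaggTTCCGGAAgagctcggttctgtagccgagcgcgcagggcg

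Positions are those of a match's first base, with the start at 0. The Gja1 promoter held 1 AP-1 match, at -19, and AP-1 matches were present in 7.93% of the 27025 promoters of the table. Gja4 and Gja5 each held 1 GC box, at -79 and -17, and 35.9% of promoters held one. The Panx1 promoter held 1 RBPJ match, at -16, against 25.5% of promoters. It also held 4 ETS matches, against 15.2% of promoters with at least 1. These 4 lie in 2 palindromic stretches, beginning at -36 and 10, in which a match on each strand overlaps the other, so they mark 2 places and not 4. None of the 4 windows held TATAAA, which 14.2% of promoters did. GC content was 47.7% for Gja1, 62% for Gja4, 55.7% for Gja5 and 61.3% for Panx1, against a median of 52.7% over all promoters. A match is a string of letters and was not tested for binding.

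Panx1 mRNA was higher in the aorta of AngII-treated mice, and it was the only one of the 5 genes whose change passed the test. The 4 connexins did not pass: Gja1 and Gja4 had higher means, and Gja5 and Gjc1 lower means, in AngII than in vehicle arrays. The test was limma over all 15095 probe sets with Benjamini-Hochberg adjustment and a threshold of 0.05. It called 5.33% of all probe sets, 2.42% as higher and 2.91% as lower. The members' count of 1 in 5 stands beside that background, and with 5 genes it says little about them as a set. In RNA of a whole tissue, fewer cells of a type and less RNA per cell cannot be told apart.

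**Figure D1:**
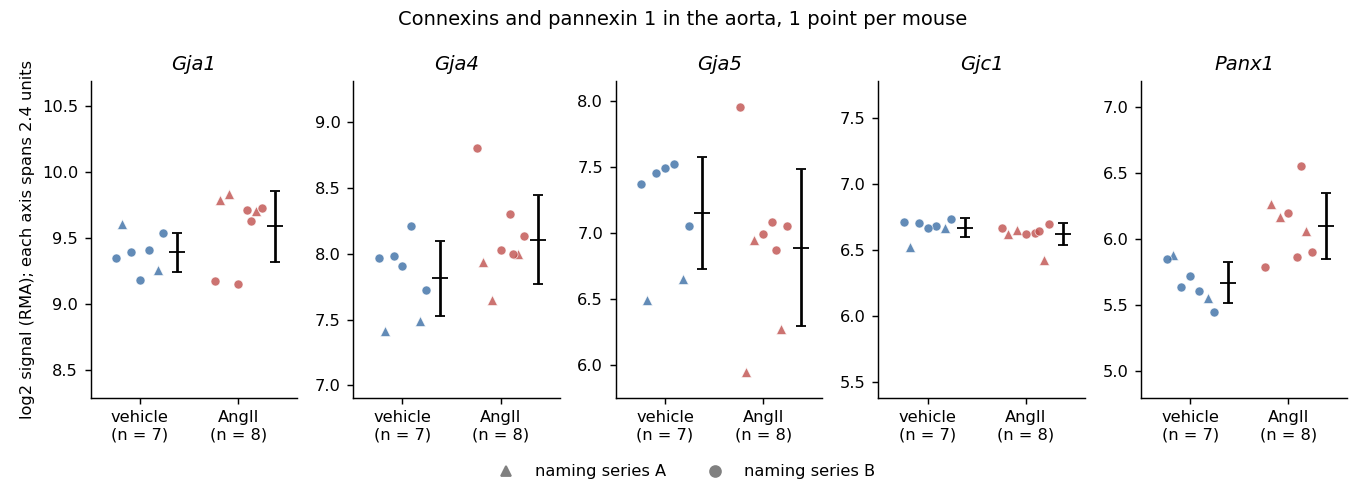
Log2 signal (RMA) of the 5 genes, with 1 point per mouse, vehicle (n = 7) in blue and AngII (n = 8) in red. Triangles are arrays of naming series A and circles those of series B, and black bars are the mean ± SD of each group. Only Panx1 passed the test, and the groups overlap in every panel.

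The sample names fall into 2 series, A with 2 vehicle (1 and 2) and 3 AngII arrays (1 to 3) and B with 5 of each. What these series stand for is not stated, and the members' values were also computed within them. The array medians lay between 7.16 and 7.28. The arrays least like the rest were AngII 8, AngII 5 and vehicle 1 (median r of 0.954, 0.959 and 0.959). Of the 10 macrophage marker genes, 7 were called higher under AngII, and of the 7 fibroblast markers, 2 were called higher and none lower. By limma, 0 markers of endothelium (12 genes), smooth muscle (8) or adipocytes (9) were called, with 1, 2 and 0 at an unadjusted p under 0.05 and 1, 2 and 0 by SAM (significance analysis of microarrays) at q under 5%. Adipocyte signal remained after the cleaning and was uneven. The mean of the 9 adipocyte markers ran from 7.71 to 10.37 in vehicle and from 8.15 to 10.35 in AngII arrays. One of them, Ucp1, was at percentile 98.1 of mean signal and ran from 8.50 to 12.2 over the arrays. The mean of the 3 measured cardiac muscle markers was 10.3 in vehicle 1 and 9.70 in AngII 1, against 7.44 to 7.90 in the other 13 arrays.

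Panx1 lay between 5.44 and 5.88 in the 7 vehicle arrays, with a median of 5.63, and between 5.79 and 6.55 in the 8 AngII arrays, with a median of 6.11. All 8 AngII arrays were above the vehicle mean and 6 were above the highest vehicle array, vehicle 1. The 2 that were not were AngII 4 (5.86) and AngII 6 (5.79). The highest array of all was AngII 8. The means were 5.67 ± 0.157 (SD, n = 7) and 6.10 ± 0.251 (SD, n = 8). On the log2 scale the change was 0.43 with a standard error of 0.104 (limma, adjusted p = 0.0264), or 1.35-fold (95% interval 1.16 to 1.57). An exact permutation test over all 6435 splits of the 15 arrays, two-sided, gave p = 0.00218, where the smallest possible is 0.000155. The mean signal of the Panx1 probe set was at percentile 11.9 of all probe sets, so this was a change at the dim end of the table.

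The difference was of like size within the naming series, 0.45 in A and 0.41 in B, with the interaction at an adjusted p of 0.97 in limma. The adjusted p from limma no longer passed in series B alone (0.123) or series A alone (0.366). It also ended when vehicle 2, 4, 5 or 7 or AngII 5 was left out, at 0.0515 to 0.0613, with log2 fold changes of 0.39 to 0.44. With the replicate number as a block, which leaves out AngII 8, the log2 fold change was 0.37 (adjusted p = 0.0634 from limma).

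The macrophage markers, of which 7 of 10 were called higher, had their highest means in some of the same arrays. The mean of the 10 ran from 7.55 to 8.34 in vehicle and from 8.26 to 9.18 in AngII arrays. The 2 arrays with the highest macrophage mean in the AngII group, AngII 8 (9.18) and AngII 5 (8.90), had Panx1 at 6.55 and 6.19, and the highest in the vehicle group, vehicle 1, had the highest Panx1 of its group. Other arrays did not follow this order. AngII 1 had Panx1 at 6.265, above AngII 5, with a macrophage mean of 8.37. AngII 6 had the lowest Panx1 of its group (5.79) with a macrophage mean of 8.57. The 5 relations of the macrophage mean with the members were added to the planned relations and adjusted on their own. Among mice of the same group, deviations of Panx1 and of the macrophage mean correlated with r = 0.618 and rho = 0.564 (permutation test within groups, adjusted p = 0.11 and 0.198 over 5 relations). In series B, r was 0.773 over 10 arrays, and series A held too few arrays. No single macrophage marker was below r = 0.252 with Panx1, and the highest was at 0.723. Among the 25 planned relations, Panx1 and the smooth muscle mean were at r = -0.491 and rho = -0.529 (permutation test within groups, adjusted p = 0.225 and 0.182). In series B that r was -0.78. For Panx1 with the adipocyte and endothelial means, r was 0.438 and -0.308 (adjusted p = 0.225 and 0.49 from the same test). With the macrophage mean as a covariate the log2 fold change of Panx1 was 0.14 (95% interval -0.15 to 0.43, adjusted p = 0.867 from limma), in a fit that called 1 probe set of the whole table. With the smooth muscle mean it was 0.33 (adjusted p = 0.154), and with the adipocyte mean 0.37 (adjusted p = 0.0598). With the endothelial mean it was 0.44 (adjusted p = 0.0215), again from limma. The mean of the 7 fibroblast markers also moved with the group: it ran from 10.9 to 11.2 in vehicle and from 11.3 to 11.7 in AngII arrays, without overlap. It too was highest in AngII 5 (11.7) and AngII 8 (11.45) and, in the vehicle group, in vehicle 1 (11.2). The part of macrophages, fibroblasts, smooth muscle or fat in the Panx1 result was not tested beyond these values.

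**Figure D2:**
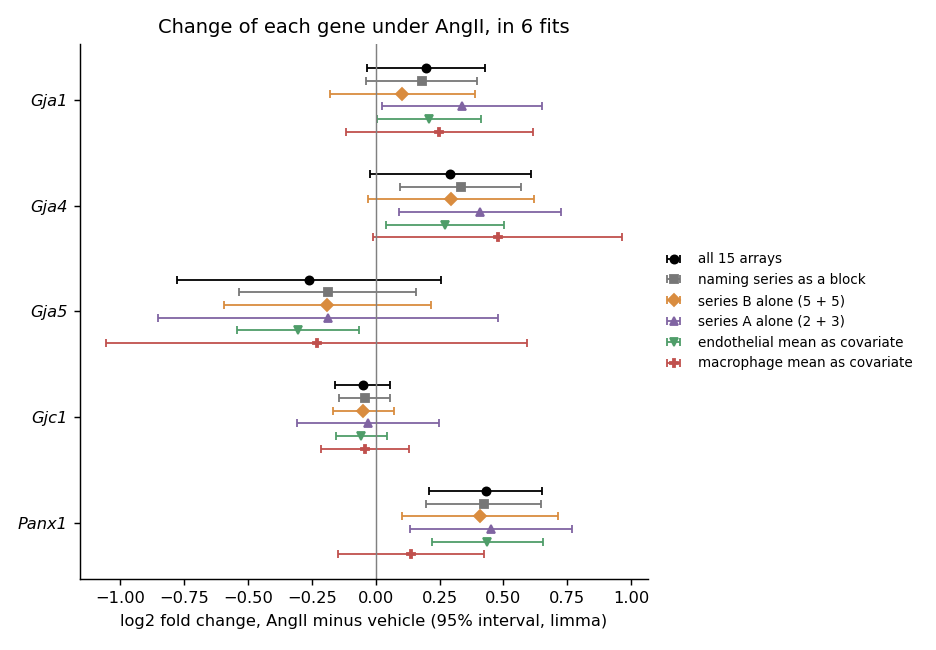
Log2 fold change, AngII minus vehicle, of the 5 genes in 6 limma fits, with 95% intervals not adjusted for the number of genes. The interval of Panx1 lies above 0 in every fit but the one with the macrophage mean, where it runs from -0.15 to 0.43.

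Gja5 was the member that varied most between mice. It lay between 6.50 and 7.52 in vehicle arrays, with a median of 7.38, and between 5.95 and 7.96 in AngII arrays, with a median of 6.97. The groups overlap throughout, and 7 of the 8 AngII arrays were below the vehicle mean while the exception, AngII 6, was the highest array of all. The means were 7.15 ± 0.425 (SD, n = 7) and 6.89 ± 0.597 (SD, n = 8), and both SDs are above the median SDs of all probe sets, 0.154 and 0.162. From lowest to highest array the signal spanned 4.04-fold. On the log2 scale the change was -0.26 with a standard error of 0.244 (limma, adjusted p = 0.572), with a 95% interval from -0.78 to 0.26. A second probe set carries both Gja5 and Gpr89 and was not used for the gene. It varied less (SD 0.142 and 0.215) and changed by -0.19 (95% interval -0.38 to 0.01, limma, adjusted p = 0.251). Its signal cannot be assigned to 1 of these genes.

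The naming series differed for Gja5, by 0.80 higher in B than in A (adjusted p = 0.0184 from limma, in a fit with the group). The 4 lowest arrays, AngII 1 (5.95), AngII 2 (6.27), vehicle 1 (6.50) and vehicle 2 (6.65), all belong to series A. Those 4 arrays also had the 4 lowest endothelial means, 8.15, 8.02, 8.41 and 8.33. Within the series the AngII difference was -0.19 in both.

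Gja4 lay between 7.41 and 8.21 in vehicle arrays, with a median of 7.91, and between 7.65 and 8.80 in AngII arrays, with a median of 8.01. Only AngII 3 was below the vehicle mean, and 2 AngII arrays, AngII 4 and AngII 6, were above the highest vehicle array. The means were 7.81 ± 0.286 (SD, n = 7) and 8.10 ± 0.337 (SD, n = 8). On the log2 scale the change was 0.29 with a standard error of 0.149 (limma, adjusted p = 0.266), with a 95% interval from -0.02 to 0.61. With the naming series as a block it was 0.33 (adjusted p = 0.085 from limma). Gja4 was 0.44 higher in series B than in series A (adjusted p = 0.0555), and its 3 lowest arrays, vehicle 1, vehicle 2 and AngII 3, belong to series A.

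Gja4 and Gja5 varied together among mice of the same group, and Gja5 varied with the endothelial markers. Deviations from the group means were compared for 25 relations, the 10 pairs of members and each member against the endothelial, smooth muscle and adipocyte means, and 3 passed. For Gja4 and Gja5, r was 0.783 and rho 0.861 (permutation test within groups, 100000 resamples, two-sided, adjusted p = 0.0279 and 0.00325 over 25). For Gja5 and the endothelial mean, r was 0.904 and rho 0.818 (permutation test, adjusted p = 0.00125 and 0.00325). For Gja4 and the endothelial mean, r was 0.728 and rho 0.80 (permutation test, adjusted p = 0.0279 and 0.00717). When the pair of arrays most distant from the median of the measure on the x axis (Gja4 in the first case, the endothelial mean in the others) was dropped, r was 0.611, 0.871 and 0.718 in that order.

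Within series B these r were 0.940, 0.799 and 0.785 over 10 arrays. Series A has 5 arrays, too few for a correlation, and in it Gja4 ran opposite to the endothelial mean within each group. Its AngII arrays 1, 2 and 3 had Gja4 at 7.93, 8.00 and 7.65 with endothelial means of 8.15, 8.02 and 8.57, and its vehicle arrays 1 and 2 had Gja4 at 7.41 and 7.49 with endothelial means of 8.41 and 8.33. Gja4 and Gja5 were also opposed in its AngII group, where AngII 3 had the lowest Gja4 and the highest Gja5 (6.95) of the 3. With the means of both group and series subtracted, Gja5 and the endothelial mean were at r = 0.80, Gja4 and Gja5 at 0.53 and Gja4 and the endothelial mean at 0.448, and the latter 2 no longer passed. Of the 12 endothelial markers taken singly, r with Gja5 ran from -0.467 for the VEGF receptor Kdr to 0.966 for von Willebrand factor, Vwf, with a median of 0.901. With Gja4 it ran from -0.642 for Kdr to 0.885 for the receptor phosphatase Ptprb, with a median of 0.753. How much endothelial RNA each sample held and the level of Cx37 and Cx40 mRNA in those cells cannot be told apart here.

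**Figure D3:**
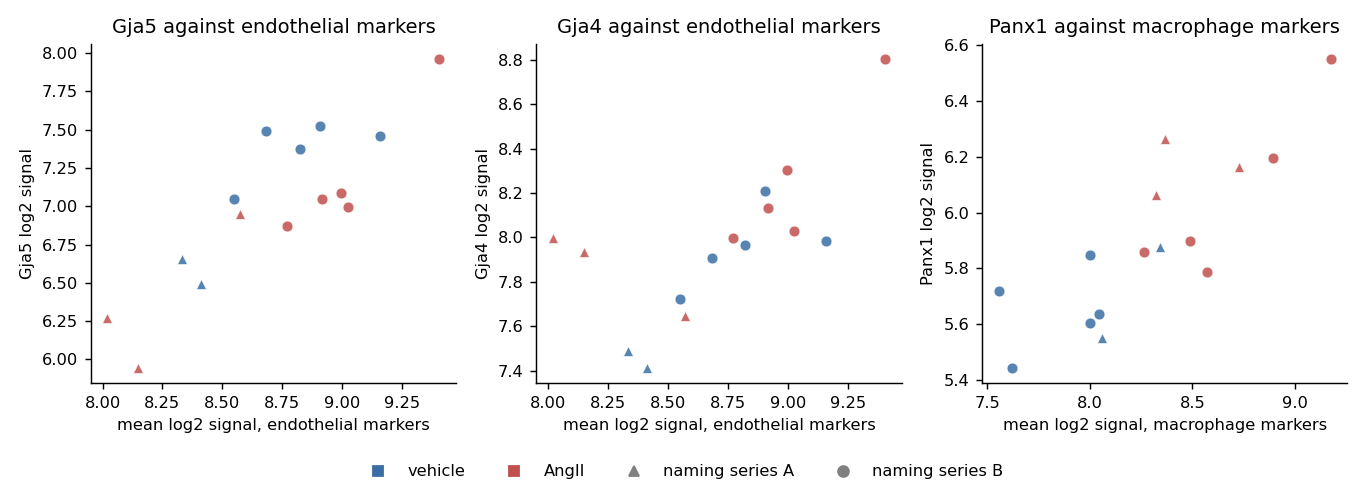
Log2 signal of Gja5 and Gja4 against the mean of 12 endothelial markers, and of Panx1 against the mean of 10 macrophage markers, with 1 point per mouse, blue for vehicle and red for AngII, triangles for naming series A and circles for B. Gja5 rises with the endothelial mean in both groups (r = 0.904 within groups), while the AngII arrays lie to the upper right for Panx1.

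The difference between Gja4 and Gja5 on the same array was larger in AngII than in vehicle mice. This pair was picked out after its values had been seen, and it is 1 of the 10 pairs of members, all of which were tested. Gja4 minus Gja5 lay between 0.413 and 0.918 in vehicle arrays, with a mean of 0.662 ± 0.173 (SD, n = 7). It lay between 0.695 and 1.99 in AngII arrays, with a mean of 1.21 ± 0.435 (SD, n = 8), and 6 of the 8 were above the highest vehicle array. The change was 0.553 on the log2 scale (exact permutation test, two-sided, p = 0.00357, adjusted p = 0.0179 over 10 pairs). It was 0.595 in series A and 0.485 in series B, where the 5 arrays of each group did not overlap (exact permutation test, p = 0.00794, the smallest that 5 against 5 allow). Shuffling within the series gave p = 0.00873 (exact permutation test over 2520 splits). Leaving out each array in turn gave changes from 0.442 to 0.627. The size of the difference has no meaning in itself, because the probe sets are not on a common scale; its change shows that the genes moved unequally, not which of them moved.

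**Figure D4:**
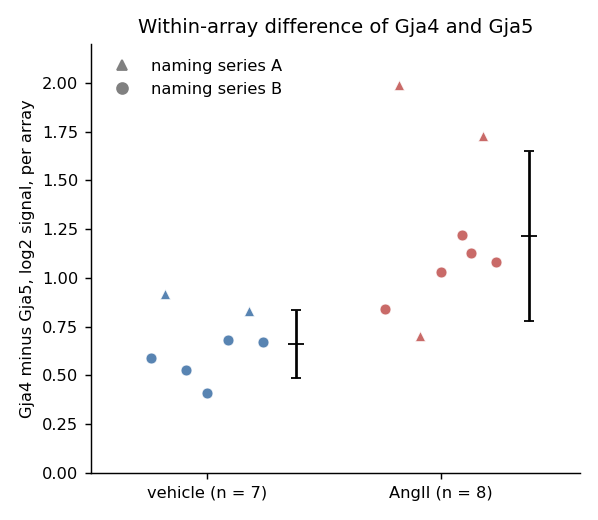
Gja4 minus Gja5 in log2 signal on each array, for vehicle (n = 7) and AngII (n = 8) mice, with triangles for naming series A and circles for B and the mean ± SD in black. Of the 8 AngII arrays, 6 lie above the highest vehicle array at 0.918.

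Of the other 9 pairs, Gjc1 minus Panx1 also passed, with a change of -0.482 (exact permutation test, p = 0.00311, adjusted p = 0.0179), and the rest did not (adjusted p from 0.131 to 0.719). That change is made up of the single changes of Gjc1 (-0.05) and Panx1 (0.43), so it is not a result separate from that of Panx1. With the endothelial mean as a covariate, the limma estimate for Gja4 was 0.27 (95% interval 0.04 to 0.50), with an adjusted p of 0.143. For Gja5 it was -0.30 (95% interval -0.54 to -0.07), with an adjusted p of 0.117. Both missed the threshold over all probe sets.

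Gja1, the connexin with the most widespread expression in the body, lay between 9.18 and 9.61 in vehicle arrays, with a median of 9.40, and between 9.15 and 9.83 in AngII arrays, with a median of 9.71. The AngII arrays split: 6 were above the highest vehicle array and the other 2, AngII 5 (9.15) and AngII 6 (9.175), were below the lowest (9.182). Some of these margins were small beside the group SDs. AngII 6 was just under the lowest vehicle array, and AngII 8 (9.63) just over the highest (9.61). The highest vehicle array was vehicle 1, and AngII 1 was at 9.79. Both had the high cardiac muscle means given above, and the part of heart muscle in Gja1 was not tested. The means were 9.39 ± 0.149 (SD, n = 7) and 9.59 ± 0.270 (SD, n = 8). On the log2 scale the change was 0.20 with a standard error of 0.109 (limma, adjusted p = 0.302), with a 95% interval from -0.03 to 0.43. It was 0.34 in series A and 0.10 in series B, and the interaction did not pass (adjusted p = 0.80 from limma). Its correlation with the smooth muscle mean was r = 0.254 (permutation test, adjusted p = 0.605). With the endothelial mean, Gja1 was at r = -0.537 (permutation test, adjusted p = 0.211). AngII 5 had the lowest smooth muscle mean of all arrays (11.1), and AngII 6 the highest endothelial mean (9.40). The arrays next in line did not follow. AngII 8 had a smooth muscle mean of 11.2 with Gja1 at 9.63, and vehicle 3 an endothelial mean of 9.16 with Gja1 at 9.40.

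Gjc1 was the steadiest of the 5. It lay between 6.52 and 6.74 in vehicle arrays, with a median of 6.68, and between 6.42 and 6.70 in AngII arrays, with a median of 6.64. The groups overlap, with 1 array low in each. The means were 6.67 ± 0.0714 (SD, n = 7) and 6.62 ± 0.0836 (SD, n = 8). On the log2 scale the change was -0.05 with a standard error of 0.0508 (limma, adjusted p = 0.594), and its 95% interval, -0.16 to 0.06, allows a change from a 10.4% decrease to a 3.98% increase. Among the members its interval was the narrowest.

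The rest of the family was thinly measured. Of 18 other connexins and pannexins, 3 had a probe set of their own, and all 3 lay below the median signal of the table. Gja6, known mainly from testis, was lower under AngII, with means of 6.98 ± 0.152 (SD, n = 7) and 6.40 ± 0.441 (SD, n = 8) and a difference of -0.58 (limma, adjusted p = 0.0445). That call ended when any of 10 of the 15 arrays was left out (vehicle 2 to 7 or AngII 1, 4, 5 or 8, adjusted p from 0.052 to 0.101), and with the smooth muscle, adipocyte or macrophage mean as a covariate. Gjd3 and Panx2 changed by 0.13 and -0.10 and did not pass.

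Of 20 proteins that bind or phosphorylate connexins, 15 were measured and 0 were called by limma (3 at an unadjusted p under 0.05, 1 by SAM at q under 5%). Over the whole table those shares were 21.9% and 11.1%. Their median log2 fold change was 0.01, beside -0.01 over all probe sets. The ones farthest from 0 were Ezr, ezrin, which anchors membrane proteins to actin (0.38), and Ccn3, the matricellular protein NOV, known to bind Cx43 (0.36). Of 20 genes of extracellular ATP and adenosine signalling, 12 were measured, and limma called 1 lower and 0 higher (4 at an unadjusted p under 0.05 and 4 by SAM, in either direction). Entpd1, the ectonucleotidase CD39 that degrades extracellular ATP and ADP, had a mean of 10.1 ± 0.147 (SD, n = 7) with vehicle, against 9.57 ± 0.288 (SD, n = 8) with AngII. It changed by -0.56 on the log2 scale with a standard error of 0.114 (limma, adjusted p = 0.0122), and it was called with each array left out. It was no longer called with the replicate number as a block (-0.53, adjusted p = 0.0755) or in series A alone (-0.42, adjusted p = 0.441). Nor was it with the macrophage mean (-0.26, adjusted p = 0.726) or the smooth muscle mean (-0.39, adjusted p = 0.0514) as a covariate in limma.

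Of 24 genes of arterial identity and flow response, 23 were measured and 0 were called by limma (6 at an unadjusted p under 0.05, 2 by SAM). Tbx18, a mural cell transcription factor (-0.40), and Hey2, a Notch target of arterial cells (-0.38), were farthest from 0. Tbx18 was called by limma without vehicle 1, AngII 2 or AngII 6 (adjusted p = 0.0245, 0.0439 and 0.0414), and Hey2 without AngII 6 (adjusted p = 0.0424). Of 10 genes of endothelium-dependent relaxation, 7 were measured and 0 were called by limma (1 at an unadjusted p under 0.05, 0 by SAM). Ephx2, soluble epoxide hydrolase (0.54), and Kcnn3, a calcium-activated potassium channel (-0.47), were farthest from 0. With the endothelial mean as a covariate Kcnn3 was called lower (-0.52, adjusted p = 0.00938 from limma).

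The genes whose deviations from the group means were most like those of each member were drawn from 12847 genes over 15 arrays, and are given as a description. Those of Gja5 were Vwf (r = 0.966), Clec14a, an endothelial lectin (0.958), and Myct1 (0.956). Those of Gja4 were Atp2a3, an endoplasmic reticulum calcium pump (0.945), Ramp2, a co-receptor for adrenomedullin (0.921), and the transcription factor Gata3 (0.918). Those of Panx1 were the transporter Abcc3 (0.914), the kinase Dclk1 (0.849) and Taf15 (0.808), of which Dclk1 was itself called higher under AngII (0.63, adjusted p = 0.00853 from limma). Those of Gja1 were Kctd9 (0.913), Fancd2 (0.842) and Rab3ip (0.825), and those of Gjc1 were Gpsm3 (0.885), Rpa1 (0.856) and Ngdn (0.849).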

How the data were processed

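RNA of the aorta of 15 mice was hybridised to Affymetrix arrays, 1 array per mouse. The RNA kit and the spelling of the strain differ between the methods and the labels. The authors deposited log2 intensities of 15095 probe sets, made with robust multiarray analysis (RMA) in Affymetrix Expression Console, a 1-colour normalization between arrays. Array files before normalization were not used here, so no probe set could be called above or below background. The number of arrays limits the precision.

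All probe sets were tested with limma 3.58.1 (R 4.3.3), Benjamini-Hochberg adjusted over the table, with no filter and a threshold of 0.05, after a test on simulated data. Gene symbols came from the platform annotation, and the probe set with the highest mean over the arrays stood for a gene. Single values were compared with exact permutation tests, and relations over arrays with permutation within groups (scipy 1.17.1). Significance analysis of microarrays (SAM), the methods' test, was run with 100 relabellings as an alternative. Other alternatives were blocks, series, arrays left out, array weights, rescaling, a filter on dim probe sets and marker means as covariates. Named are all 5 members, the called genes of each pathway list or, with none called, the 2 farthest from 0 (cell type markers were used as lists), the 3 other family members measured, and the 3 genes most like each member. The Dclk1 value was added after its values were seen. The members and the lists were chosen with earlier results of these data known. Nothing in the sources says that mice were paired, and p-values judge a difference or relation against the variation between these mice. Promoters came from RefSeq (GRCm38.p6).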

Additional observations from a re-analysis of the deposited data

Results flagged for a closer look

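Gjc1 had 1 array far below the others of its group in both groups. In vehicle arrays, vehicle 1 was at 6.52, below the next at 6.67, and in AngII arrays, AngII 2 was at 6.42, below the next at 6.62. The gap was 0.686 and 0.721 of the group's whole range, above the 95% critical values of Dixon's test, 0.568 and 0.526. Chance alone flags about 1 in 20 groups, and 10 groups were looked at. Both arrays belong to naming series A. In vehicle 1 the mean of the cardiac muscle markers was 10.3, and in AngII 2 it was 7.64, within the range of the other arrays.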

How the results depend on the processing

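No member changed direction under any alternative run, and Panx1 was the only member called in any of them. The number of members called was 1 as reported. It was 0 with the replicate block, in series A or B alone, with the smooth muscle, adipocyte or macrophage mean as a covariate, in SAM at q = 0 and with dim probe sets left out. That filter removed Gja5, Gjc1 and Panx1 themselves. Leaving out each array in turn gave 0 to 1. For Panx1 the log2 fold change was 0.37 with the replicate block, 0.41 in series B, 0.45 in series A, and 0.33, 0.37 and 0.14 with the smooth muscle, adipocyte and macrophage means. Leaving out each array in turn gave 0.37 to 0.47, and without AngII 5, AngII 8 and vehicle 1 together, chosen after seeing the data, it was 0.37 (adjusted p = 0.0406 from limma). In SAM, Panx1 was at q = 0.733%, a level of q under 5% that 1669 probe sets (11.1%) passed, and 193 were at q = 0. The cause of these changes was not tested. The whole table had 805 calls as reported, 373 in series B, 8 in series A, and 180, 430 and 1 with the smooth muscle, adipocyte and macrophage means. Leaving out each array in turn gave 344 (vehicle 5) to 1198 (AngII 6).

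The replicate block, with numbers 1 to 7 and AngII 8 left out, gave 191 calls over all probe sets. The numbers did not pair the arrays: deviations of same-numbered arrays correlated at 0.182, 0.233, 0.230, 0.416, -0.456, -0.0957 and -0.254. In 1 of 7 pairs the AngII array correlated better with the vehicle array of its own number than with any other vehicle array. With the block Gja6 was at -0.54 (adjusted p = 0.161) and Entpd1 at -0.53 (adjusted p = 0.0755), both from limma and no longer called. In series A alone Gja6 was at -0.42 and Entpd1 at -0.42, and in series B Gja6 was at -0.66, all uncalled.

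The relation of Gja4 with Gja5 no longer passed within AngII arrays (r = 0.697) or with group and series means subtracted (0.53), and that of Gja4 with the endothelial mean within AngII arrays (0.683) or with group and series means subtracted (0.448). Among uncalled genes, the sign turned in series A for Panx2 (0.044) and Ephx2 (-0.24), and with the macrophage mean for Ezr (-0.0030), Hey2 (0.12), Tbx18 (0.0028) and Ephx2 (-0.23). Calls were gained for Tbx18 with array weights (adjusted p = 0.0225) and without AngII 5, AngII 8 and vehicle 1 together (0.0153), and for Ccn3 with the smooth muscle mean (0.0443), all from limma. Members other than Panx1 gave 0.16 to 0.26 (Gja1), 0.19 to 0.36 (Gja4), -0.41 to -0.12 (Gja5) and -0.08 to -0.02 (Gjc1) with each array left out.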
